A study of Mus musculus with 40 samples.

Results

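The proteins of the cytosolic ribosome are described here through 84 genes of the 21347 in the deposited table. They are all the genes whose symbol is Rpl, Rps or Rplp with a number, together with Rpsa. Symbols that end in -ps, which name pseudogenes, and the Rps6k kinases were left out. Of the 84, 34 are named for proteins of the small ribosomal subunit and 50 for proteins of the large subunit. All 84 passed the filter on low values, and 14701 genes of the whole table did. Gene models classed 80 of the 84 as protein coding and 4 (Rpl32l, Rpl6l, Rps3a2 and Rps3a3) as processed pseudogenes. Counts by subunit, here and below, include these 4.

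The libraries came from 4T1, a mouse mammary carcinoma cell line from the BALB/c strain, seeded at 10k cells per cm2 on tissue culture polystyrene. The plastic was left bare or carried a coat laid down at 250 µg/ml, which was either fibronectin, vitronectin, collagen I or collagen IV. After a night in culture, wells received splenic T cells of C57Bl6 mice at 80k per cm2 with interleukin 2 at 30 U/mL, or interleukin 2 alone, for a further 24 h. The submitters counted 5 biological replicates, called experiments 1 to 5 here. Of 4T1 alone, uncoated plastic and fibronectin had 5 libraries each and the other 3 coats had 4 each, 22 in all. With T cells, uncoated plastic, fibronectin and collagen IV had 4 each and collagen I and vitronectin 3 each, 18 in all. Both arms therefore had interleukin 2, the T cells and the carcinoma came from different mouse strains, and carcinoma and T cells were collected together.

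Each ribosome holds about 1 copy of each of its proteins, and the cell makes them in matched amounts. The proteins are imported into the nucleolus, assembled with ribosomal RNA that RNA polymerase I transcribes, and exported as a small subunit, which decodes the messenger, and a large subunit, which joins amino acids. Their messengers are short and very abundant, and in mammals most begin with a C followed by a run of pyrimidines, the terminal oligopyrimidine (TOP) tract. Through this tract the mTOR pathway and the RNA-binding protein Larp1 control how much of each messenger is translated and how stable it is. A change in growth signalling can therefore alter translation of these messengers without changing their level, and only the level was measured here.

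Around the RefSeq start site, 30 bases were read for 61 members, 15 before the start and 15 from it, and searched on the gene's strand for a run of at least 7 bases that are each C or T. A run was present in 31 of the 61 (50.8%), against 18.5% of the 27025 genes with such a window and 18.02% of the 9608 that also passed the filter. The same search for A or G, which is a pyrimidine run on the other strand, found 3 members (4.92%), against 19.9% and 17.9%. Windows are shown for members on which the results below turn, 5 with a run and then 3 without, with the run in capitals. They lie, in the order given, at chr4:86857353-86857382 (minus strand), chr7:141447636-141447665 (plus), chr11:114668565-114668594 (plus), chr3:90213634-90213663 (minus), chr3:28805493-28805522 (plus), chr17:24720048-24720077 (plus), chr10:128549154-128549183 (minus) and chr9:120127751-120127780 (plus) of GRCm38.p6, from RefSeq.
Rps6: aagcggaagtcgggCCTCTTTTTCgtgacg
Rplp2: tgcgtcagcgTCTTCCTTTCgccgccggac
Rpl38: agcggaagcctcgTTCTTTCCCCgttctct
Rps27: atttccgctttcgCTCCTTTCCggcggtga
Rpl22l1: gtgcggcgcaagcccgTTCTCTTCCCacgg
Rps2: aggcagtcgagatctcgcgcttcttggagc
Rpl41: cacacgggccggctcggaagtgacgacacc
Rpsa: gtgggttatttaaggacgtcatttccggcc
In Rps6 the run begins 1 base before the annotated start, in Rpl38 and Rps27 2 bases before and in Rplp2 5 bases before. The window is tied to 1 annotated start, which these libraries did not measure, so a window without a run says only that those letters are not there.

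The members covered a wide range of levels. Values are the authors' normalised reads per M reads of library size (M for mega), and levels were compared between genes only per kilobase of the principal transcript. Per kilobase, the highest means over the 40 libraries were 2821 ± 287 for Rplp1 (SD, n = 40), 2611 ± 336 for Rpl41, 2241 ± 167 for Rplp0, 2099 ± 193 for Rps12 and 2025 ± 144 for Rpsa. Rplp1 and Rplp0 form the stalk that recruits elongation factors, Rpl41 is the smallest ribosomal protein, and Rpsa is the small-subunit protein also known as the laminin receptor. The lowest were 40.7 ± 5.2 for Rpl24, 45.9 ± 3.3 for Rpl13a, 66.7 ± 8.7 for Rpl22l1, 98.8 ± 8.6 for Rpl32l and 129 ± 11.2 for Rpl7l1, and the median member stood at 896. Rpl24 and Rpl13a are constitutive parts of the large subunit, whereas the other 3 are copies of Rpl22, Rpl32 and Rpl7. Because the table counts reads in genes and many pseudogenes carry the same sequence, part of this order may not be transcript level. A median of 50.8% of the 75-base windows of a member's transcript also occurred in another gene's transcript, from 0% to 98.5% for Rps27, and how reads with several matches were counted is not given in the sources used here.

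**Figure D1:**
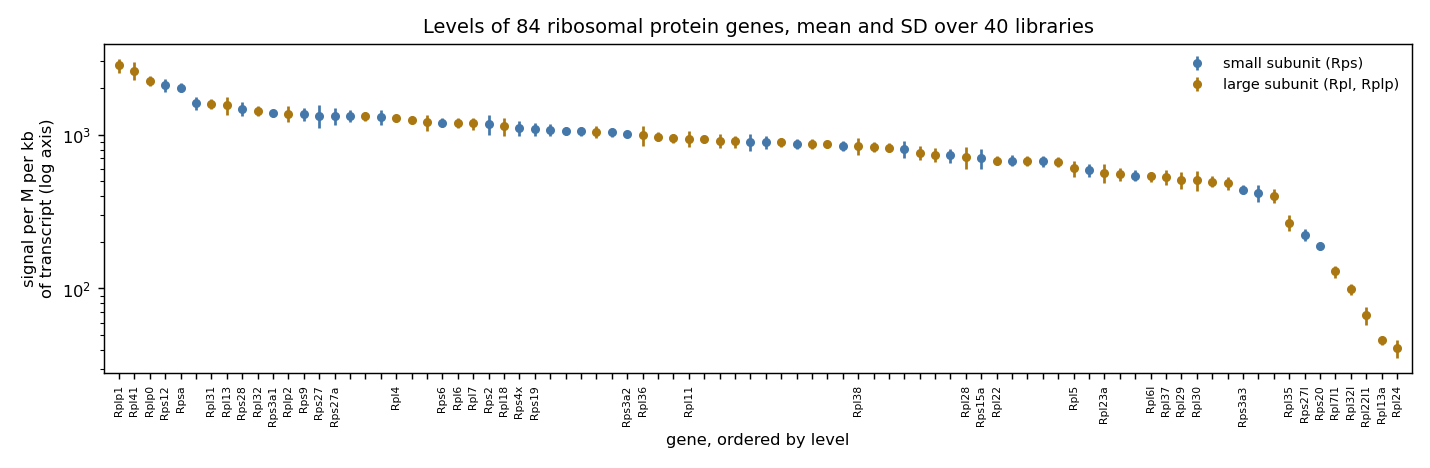
Level of each of the 84 members per kilobase of transcript, on a log axis, as the mean and SD over all 40 libraries, coloured by subunit, with the genes named in the text labelled. The members run from 40.7 for Rpl24 to 2821 for Rplp1.

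The whole series is summarised by the following. The libraries held 18.95 to 239.128 M reads each (median 34.57 M), so every member was counted far above the limit that a count of 0 allows (0.0124 to 0.158 per M). Summed over 27 T cell marker genes, the level was 14.6 to 23.3 per M in 4T1 alone. In co-culture it was 388 to 574 in experiment 1, 71 to 109 in experiment 2, 53.2 in experiment 3, 1946 to 5882 in experiment 4 and 44.3 to 90.8 in experiment 5. The T cell signal was thus by far the highest in the co-cultures of experiment 4. Over 22 epithelial markers the sum was 3755 to 5280 in 4T1 alone and 2359 to 5010 in co-culture. B cell markers reached 0.285 and 143 per M in the 2 arms, erythroid and platelet markers 1.00 and 46.0, and myeloid markers 14.6 and 16.8. In these mixed libraries a change in the RNA of the carcinoma, fewer carcinoma cells and RNA brought by other cells cannot be told apart.

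Taken as a sum, the 84 members held 6.29 ± 0.27% of all reads in 4T1 alone (SD, n = 22, range 5.90 to 6.97%) and 6.06 ± 0.31% in co-culture (n = 18, range 5.67 to 6.78%). The arms overlapped over most of their range. Small-subunit genes took 2.65% of reads in 4T1 alone and 2.57% in co-culture, and large-subunit genes 3.64% and 3.49%. In 4T1 alone the share was highest in experiment 3, where 4 libraries were at 6.6 to 6.67% and the library on vitronectin was at 6.13%. The highest single value was vitronectin in experiment 5 at 6.97%, against 5.94 to 6.40% in the other 4 libraries of that experiment. These 2 vitronectin libraries of 4T1 alone stand apart from their own experiments, and leaving them out is given beside the results that rest on them. They were picked by the members' own share of reads, so a count without them shows dependence on them and is no support.

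**Figure D2:**
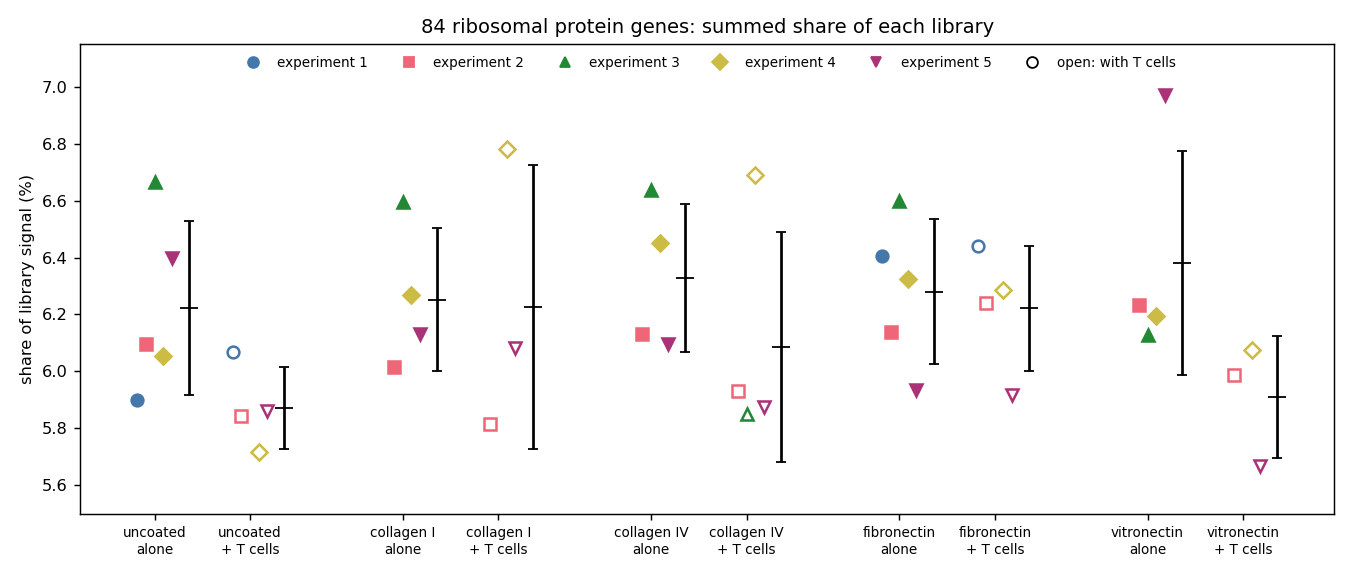
Share of all reads that fell in the 84 members, in percent, for each library by substrate and experiment, with filled points for 4T1 alone, open points for co-culture and bars for the mean and SD of a group. 4T1 alone on vitronectin in experiment 5 is highest at 6.97%, and the means of the arms are 6.29% and 6.06%.

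The first comparison asked what T cells did to the members, averaged over the 5 substrates. Of the 84 members, 30 fell and none rose (limma, Benjamini-Hochberg adjusted p under 0.05 over 14701 genes), where 12.2% of all genes fell and 13.1% rose. The changes were small. The median member differed by -0.08 on the log2 scale against -0.01 for all genes tested, 75 of the 84 lay below 0, and 45 had an unadjusted p under 0.05. For counts at an unadjusted p, here and below, the share of all genes is not given. Such counts are therefore not a result about the members alone. Both subunits took part, with 12 of 34 small-subunit genes called (median -0.07) and 18 of 50 large-subunit genes (median -0.09). Among the 40 members that share fewer than 50% of their windows with other genes, 12 were called and the median was -0.08. Fold changes are differences of log2(value + 1). The p-values measure the spread between libraries around 10 group means and take the libraries of 1 experiment as independent, although these correlate. With the experiment as a block, 38 members were lower (23.4% of genes).

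The largest falls were in genes of both subunits. Rpl23a lies at the exit of the tunnel through which the new chain leaves the large subunit (chromosome 11, 78180932 to 78183584, mm10). It had 262.7 to 436.8 per M in 4T1 alone with a median of 330.1, and 242.2 to 360.6 with a median of 286.3 in co-culture. Its ranges overlapped, but when each co-culture was set against its own control (4T1 alone on that substrate in that experiment), 15 of 18 such pairs were lower. The log2 difference was -0.22 ± 0.06 (SE, adjusted p 0.0098). Rpl36, also of the large subunit (chromosome 17, 56613416 to 56614243), went from 292.8 to 487.0 with a median of 410.8 in 4T1 alone, and from 257.5 to 440.9 with a median of 360.8 in co-culture. It was lower in 14 of 18 pairs, by -0.21 ± 0.06 (adjusted p 0.0196).

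Rps2, a small-subunit protein near the messenger's entry (chromosome 17, 24718116 to 24721929), had 912.5 to 1423 per M and a median of 1291 in 4T1 alone, and 856.6 to 1360 with a median of 1107 in co-culture. It was lower in 13 of 18 pairs, with a difference of -0.20 ± 0.07 (adjusted p 0.0373). Rpl41 (chromosome 10, 128548114 to 128549305) had 967.1 to 1372 per M with a median of 1225, and 848.4 to 1305 with a median of 1019 in co-culture. The difference was -0.20 ± 0.06 (adjusted p 0.0141) and 13 of 18 pairs were lower. For both genes the 2 arms overlapped widely.

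Rpl37 (chromosome 15, 5116645 to 5119140) fell by 0.17 ± 0.05 (adjusted p 0.0151, 14 of 18 pairs), with medians of 447.2 and 411.4 per M. Rps27l, a copy of Rps27 that p53 induces (chromosome 9, 66946086 to 66949516), fell by 0.14 ± 0.04 (adjusted p 0.0143, 14 of 18 pairs), from a median of 115.5 to 107.5. Rpl38, which favours translation of certain developmental messengers (chromosome 11, 114668524 to 114672331), fell by 0.14 ± 0.05 (adjusted p 0.0422, 15 of 18 pairs). These shifts are within the range of the single libraries of each arm.

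Rpl11 and Rpl5 travel together with a small ribosomal RNA and, when free of the ribosome, bind Mdm2, the ligase that degrades p53. Rpl11 (chromosome 4, 136028265 to 136053428) had 665 to 924.9 per M with a median of 848.4 in 4T1 alone, and 595.1 to 883.7 with a median of 768.5 in co-culture. It fell in the comparison, by 0.16 ± 0.05 (adjusted p 0.0317), and was lower in 16 of 18 pairs. Rpl5 was not called, at 0.04 (adjusted p 0.67). Rps6, the small-subunit protein that S6 kinases phosphorylate, was not called either, at -0.03 (adjusted p 0.48), and neither was Rps27a, which is made as a fusion with ubiquitin, at -0.08 (adjusted p 0.281).

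Of the stalk genes, Rplp0 (chromosome 5, 115559467 to 115563727) had 2824 to 3612 per M with a median of 3145 in 4T1 alone, and 2657 to 3461 with a median of 2882 in co-culture. It fell by 0.10 ± 0.03 (adjusted p 0.0224, 13 of 18 pairs). Rplp1 and Rplp2 both differed by -0.12 and were not called (adjusted p 0.0593 and 0.0958). Rpsa (chromosome 9, 120127689 to 120132369) had 3077 to 3724 per M with a median of 3340, and 2732 to 3466 with a median of 3040 in co-culture. Its difference of -0.13 ± 0.03 was lower in 15 of 18 pairs and had the smallest adjusted p of any member, 0.0032. The copies and parents given at the end add 4 called members, Rpl6, Rpl6l, Rpl7l1 and Rpl22. The other 16 called members lay between -0.13 for Rps12 and -0.07 for Rpl4. At the other end no member passed the test upward, and Rpl22l1 had the highest value, 0.09 (adjusted p 0.226). The median difference was -0.10 for the 31 members with a pyrimidine run at the start and -0.08 for the 30 without.

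**Figure D3:**
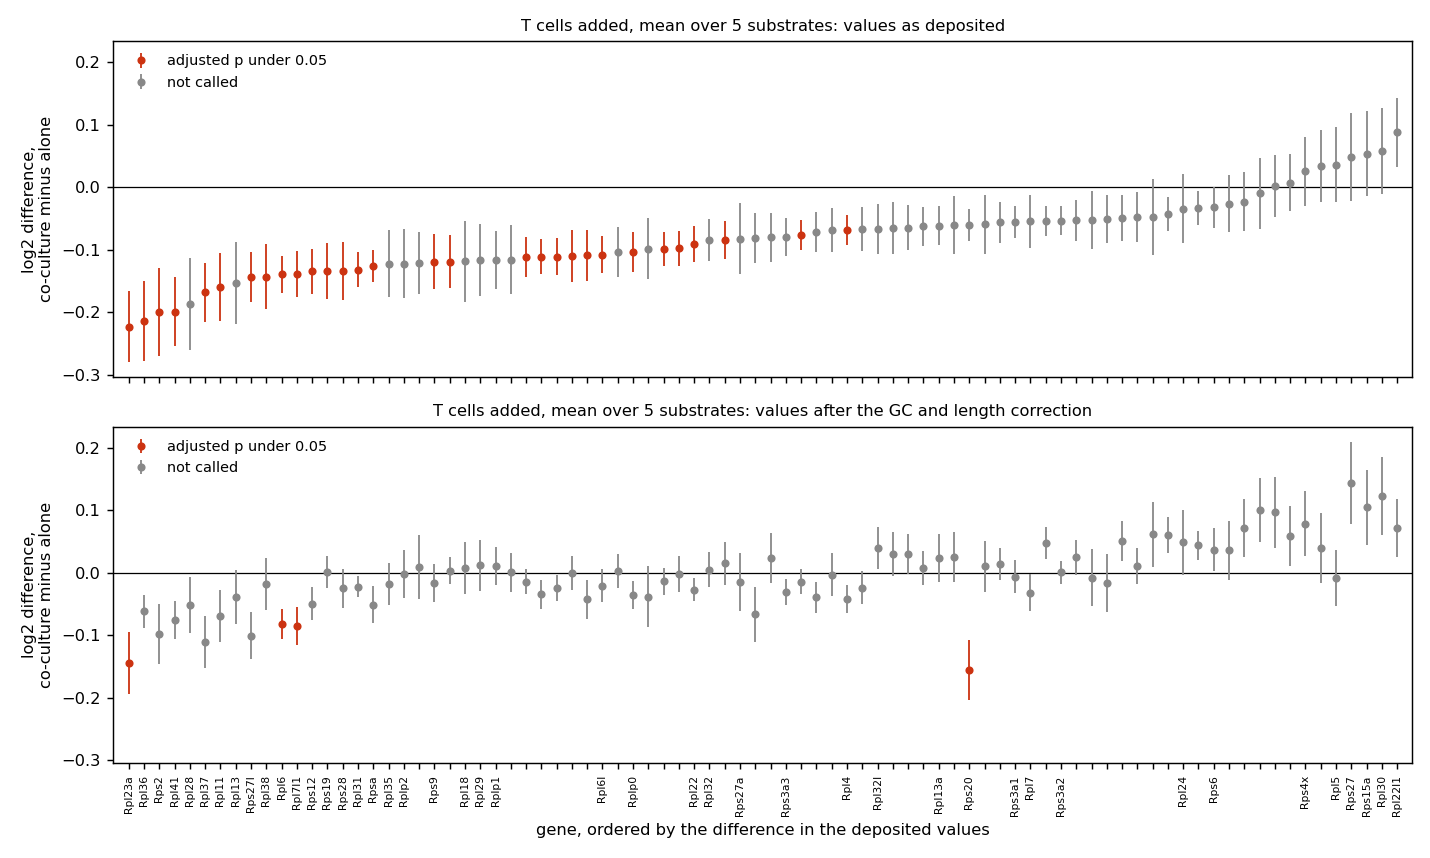
Log2 difference with T cells, averaged over substrates, for each of the 84 members with its standard error, as deposited (upper panel) and after the GC and length correction (lower panel), with called members in red and the genes named in the text labelled. The deposited values run from -0.22 for Rpl23a to 0.09 for Rpl22l1, and 75 lie below 0.

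The count depended on how base composition was treated. Across the 84 members the T cell difference ran against the GC content of the transcript, with a Spearman rho of -0.49. Members hold 40.6 to 60.8% GC with a median of 51.7%, against 50.2% for all genes tested, and their transcripts have a median of 740 bases against 2393. With the dependence on GC and length removed within each library, an alternative chosen after the data were seen, 4 members were called lower and none higher (5.58% and 11.7% of genes), and the median member was at 0.00. The 4 were Rpl23a at -0.14 (adjusted p 0.0425), Rpl6 at -0.08 (0.0225), Rpl7l1 at -0.09 (0.0484) and Rps20 at -0.16 (0.0296). The gene model used for Rps20 has 3706 bases, so its correction is unsure. Without experiment 3 the count was 4 (3.96% of genes lower). Without experiment 4 it was 3, where 0.381% of all genes were lower, and the median was then -0.11 with all 84 below 0. Leaving out the 2 vitronectin libraries that stand apart gave 23 (11.6% of genes lower).

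Other genes of the pathway were taken as lists. Of 23 translation factors and other TOP genes, 6 fell and none rose (median -0.06). Eef1g and Eef1d, of the elongation factor that recharges Eef1a, differed by -0.16 and -0.14, and Naca, a chaperone at the exit tunnel, by -0.11. Of 53 assembly factors 20 fell and none rose (median -0.10), among them Nhp2 at -0.21, Grwd1 at -0.20 and Fbl, which methylates ribosomal RNA, at -0.20, and 13 were lower after the correction for GC and length. Of 19 genes of RNA polymerase I and its factors, 8 fell and 1 rose. Among 27 regulators 2 fell and 2 rose, in each direction a smaller share than the 12.2% and 13.1% of all genes: Myc, which drives ribosome production, was at -0.25, Rictor, of the second mTOR complex, at 0.37, and the kinase gene Rps6ka3 at 0.32. None of the other 5 ribosomal genes with unmatched symbols passed the test, with Fau at -0.11 (adjusted p 0.183) and Rack1 at -0.07 (0.0912). Among 14 snoRNA host genes 1 fell, Snhg8 at -0.18, and the median was 0.04.

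Genes outside the cytosolic ribosome also fell. Of 77 mitochondrial ribosomal protein genes 37 fell (median -0.10), of 72 respiratory chain genes 38 fell (median -0.10), and of 161 ribosomal protein pseudogenes 48 fell and 2 rose (median -0.08). The members' own median was -0.08. All 27 T cell markers rose (median 2.55), and 5 of 22 epithelial markers fell (median -0.18). The part of either in the members' result was not tested.

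On single substrates no member passed the test for T cells on any of the 5, where 0% of all genes did in each direction (limma). At an unadjusted p under 0.05 there were 25 members on uncoated plastic, 10 on collagen IV, 17 on vitronectin and none on collagen I or fibronectin. Without a share of all genes beside them, these counts are not read as particular to the members or to a substrate. Without the 2 vitronectin libraries of 4T1 alone that stand apart, vitronectin had 9 such members, none called, and the median there was -0.09 in place of -0.12. The smallest p on uncoated plastic belonged to Rpl31, at -0.25 ± 0.06 (adjusted p 0.255), and on vitronectin also to Rpl31, at -0.21 ± 0.07 (adjusted p 0.52). edgeR on the recovered reads called 1 member lower on uncoated plastic (0.068% of genes lower and 0.646% higher) and none on the other 4. With the experiment as a block 10 members fell on uncoated plastic, where 2.73% of genes did: Rpl35 and Rpl18 (both -0.31), Rpl28 (-0.30), Rpl31 (-0.24), Rpl11, Rps19, Rps28, Rps9, Rpl32 and Rpl6. With the block and the correction for GC and length together no member was called there (0.00682% of genes lower, limma), and 9 had an unadjusted p under 0.05. The block alone called no member on the other 4 substrates. With the block, edgeR called 7 members lower on vitronectin (2.26% of genes), and the block with the library tag called 11 lower on collagen IV, a share near the 15.2% of all genes. Whether the T cell effect differed between substrates was tested directly, and no member passed (limma F test, 0% of all genes, 0 members at an unadjusted p under 0.05). The edgeR F test gave 0 on both counts.

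The coats were compared with uncoated plastic next. No member passed the test on any coat, in either arm (limma). Of all genes, 0.0952% passed on collagen I, 0.0068% on collagen IV and 0% on fibronectin and on vitronectin in 4T1 alone, and 0.0068%, 0.0136%, 0% and 0% in co-culture. The numbers of members at an unadjusted p under 0.05 were 1, 1, 1 and 0 in 4T1 alone and 3, 4, 3 and 0 in co-culture, in the same order of coats. edgeR called none in these 8 comparisons, with 1, 1, 2 and 1, and 3, 6, 2 and 0, at an unadjusted p under 0.05. The median member lay at 0.00, 0.03, 0.02 and 0.03 in 4T1 alone, and at 0.07, 0.08, 0.08 and 0.02 in co-culture. Without the 2 vitronectin libraries that stand apart, the median on vitronectin in 4T1 alone was -0.01 and no member had an unadjusted p under 0.05 there or in the F test over substrates (limma). The lowest p values in 4T1 alone included Rpl13a, at -0.16 ± 0.06 on collagen IV (unadjusted p 0.0184, adjusted p 1). F tests over all 5 substrates called no member in 4T1 alone (0.252% of genes) or in co-culture (0.129%), and no member had an unadjusted p under 0.05 by limma. By edgeR no member was called either, with 0 and 1 at an unadjusted p under 0.05.

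The experiments differed more than the coats did. In 4T1 alone, 42 of the 84 members differed between the 5 experiments (limma F test with substrate in the model, adjusted over 13776 genes), which is below the 65% of all genes that did. In the 20 libraries of 4T1 alone from experiments 2 to 5, the median member had 38.3% of its variance between experiments, 8.86% between substrates and 44.96% in neither. For all genes these shares were 46.4%, 16.5% and 30.7%. With both arms of experiments 2, 4 and 5 (30 libraries), the medians for members were 20.0% for the experiment, 8.97% for T cells, 6.39% for the substrate, 9.18% for T cells by experiment and 10.42% for T cells by substrate. None of these shares is adjusted for the number of levels, and a source with more levels takes a larger share by noise alone. The share for T cells by substrate is therefore not read as an effect, and no member passed the F test of it. The members' coefficient of variation over the 22 libraries of 4T1 alone was 4.08% to 13.3%, highest for Rps2. Its median of 7.54% was close to the 7.94% of the 6556 genes at or above the level of the lowest member. Those genes were not matched to the members on level, so the members are not read as steadier than other genes.

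Rps2 ranged most between experiments, by 0.47 on the log2 scale. Its 5 libraries of experiment 5 were at 913 per M on fibronectin, 925 on collagen IV, 928 on uncoated plastic, 965 on collagen I and 1198 on vitronectin. The experiment means were 1321, 1339, 1362, 1244 and 986 per M for experiments 1 to 5. Experiment 5 was thus low for Rps2 in 4 libraries, all below every other library of 4T1 alone, with vitronectin apart. Rpl13, Rpl36, Rpl23a, Rpl30 and Rpl29 followed, with ranges of 0.42, 0.41, 0.38, 0.36 and 0.35. Rpl30, a large-subunit protein that also binds its own transcript, had its lowest mean in experiment 2, 248 ± 6.0 per M (SD, n = 5), and its highest in experiment 5, 320 ± 32.7 (SD, n = 5).

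Against the mean of the other experiments, experiment 5 had 22 members lower and 5 higher (29.3% and 27.1% of genes). Rps2 at -0.43 ± 0.05, Rpl13 at -0.37 ± 0.06 and Rpl36 at -0.32 ± 0.05 were lowest, and Rpl30 at 0.24 ± 0.05, Rpl5 at 0.22 ± 0.04 and Rps4x at 0.19 ± 0.04 were highest. Of these 6, Rps2, Rpl30, Rpl5 and Rps4x were called on the other side in experiment 2, which had 6 higher and 6 lower (20.1% and 22% of genes): Rpl29 at 0.18, Rpl28 at 0.17 and Rps2 at 0.13, and Rpl30 at -0.21, Rpl5 at -0.17 and Rps4x at -0.14. In experiment 3, 13 rose and none fell (3.85% and 5.31% of genes), and 1 of the 84 lay below 0. Rpl23a at 0.23 ± 0.05 (adjusted p 0.0121), Rpl36 at 0.19 (0.0179) and Rps2 at 0.16 (0.0323) led. Without the 2 vitronectin libraries that stand apart, 68 of 84 were higher in experiment 3 (8.38% of genes). These libraries were picked because the members' share was low in that of experiment 3 and high in that of experiment 5. Leaving them out raises the members in experiment 3 by that choice, so the 68 are no support for a difference. In experiment 4 only Rpl22l1 passed, at -0.25 ± 0.06 (adjusted p 0.0099, 7.56% of genes lower and 8.54% higher). In experiment 1 none did (4.78% of genes in all, 2.66% higher and 2.13% lower), and 1 had an unadjusted p under 0.05, Rpl7l1 at 0.10 (p 0.0205, adjusted p 0.157). The experiments share the libraries they are set against, so these contrasts are not independent.

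The deviation of a member in an experiment was taken from the mean of the 5 experiment means. It moved with GC content in experiments 1, 2, 4 and 5 and hardly in experiment 3. Because the experiments share that mean, the 5 correlations are not independent. Across the 84 members Spearman's rho between GC and the deviation was 0.36, 0.53, 0.10, 0.48 and -0.67 for experiments 1 to 5. Across 7657 genes with at least 20 per M it was 0.19, 0.50, 0.09, 0.23 and -0.61. Rpl36, with 60.8% GC, and Rpl30, with 47.9%, lay on opposite sides in experiments 2 and 5. With GC and length removed, 40 of the 84 members differed between experiments (64.3% of genes), and experiment 3 had 18 higher and none lower (5.67% and 8.37% of genes). Rpl36 in experiment 5 was then at -0.05 (adjusted p 0.155), whereas Rps2 was at -0.32 (adjusted p 6.77e-08) and Rpl30 at 0.20 (1.14e-04).

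**Figure D4:**
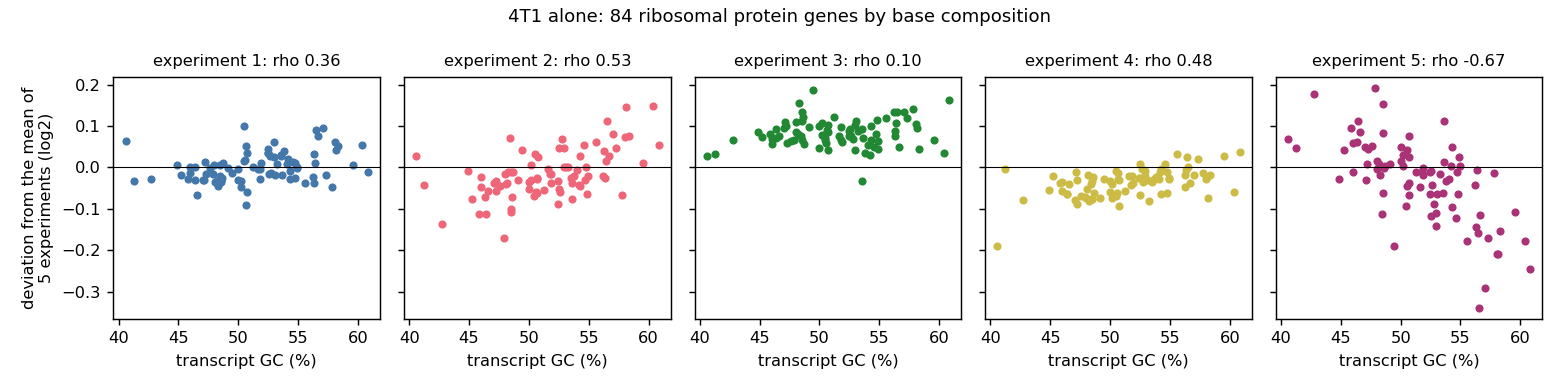
Deviation of each of the 84 members from the mean of the 5 experiments in 4T1 alone (log2), against the percent GC of its transcript, with 1 panel per experiment. The cloud tilts upward in experiment 2 (rho 0.53) and downward in experiment 5 (rho -0.67).

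The T cell effect was then taken apart by experiment, using the 18 pairs of a co-culture and its own control. The median member was below 0 in 15 of the 18 pairs, and in 10 after the correction for GC and length. It was lowest on vitronectin in experiment 5, at -0.34, where all 84 members were lower, and next on collagen IV in experiment 3, at -0.25, with 80 lower. The first of these pairs uses a 4T1 alone library that stands apart. The highest was collagen I in experiment 4, at 0.13, with 68 higher. The label of some libraries carries a tag whose meaning is not stated, and in 2 of the 18 pairs both libraries carried the same one, with medians of -0.09 and -0.14. In 2 more pairs neither library carried a tag, and the medians were 0.02 and -0.03. The tag ran with the arm. In experiment 4 all 5 libraries of 4T1 alone were tagged R3, and of the co-cultures 1 was tagged R2 and 4 had no tag. In experiment 2 all 5 co-cultures were tagged R2, and 4 libraries of 4T1 alone had no tag. T cells and tag therefore cannot be told apart in experiment 4, which also limits its contrast with experiments 2 and 5 below.

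In experiment 4, the one with the high T cell signal, members moved in both directions. There, 14 members were higher in all 5 pairs and 13 were lower in all 5, where 29.9% and 29.4% of all genes were. In each direction the members' share was below that of all genes, so movement both ways is not particular to them. In experiment 2, 19 members were lower in all 5 pairs and none was higher (11.5% and 9.37% of genes), and in experiment 5, 36 and none (8.96% and 10.9%). The difference between experiment 4 and the mean of experiments 2 and 5 was tested on the pair differences (limma, 13 residual degrees of freedom), a comparison added after the data were seen. It called 23 members higher and 3 lower in experiment 4, with 26.5% and 22.4% of all genes, so the members' share of higher calls was near that of all genes. A test over all 5 experiments called 23 (38.3% of genes). With GC and length removed the counts were 40 higher and 4 lower (26.3% and 26.4% of genes), and 40 over all experiments (41.3%).

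Rps27, a zinc-binding small-subunit protein, differed most. In experiment 4 it had 408, 411, 427, 425 and 411 per M in 4T1 alone on the substrates in the order uncoated plastic, collagen I, collagen IV, fibronectin, vitronectin, and 488, 649, 804, 529 and 550 in co-culture. All 5 co-cultures were above all 5 libraries of 4T1 alone, and collagen IV was highest. The mean pair difference was 0.51 in experiment 4 and 0.07, -0.13, -0.36 and -0.10 in experiments 1, 2, 3 and 5. Against experiments 2 and 5 it was higher by 0.63 ± 0.10 (adjusted p 9.29e-05). Nearly all of its windows (98.5%) also occur in other genes, so its reads and those of its copies cannot be told apart.

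Rps15a, another small-subunit gene (chromosome 7, 118104372 to 118116188), had 397, 402, 423, 492.7 and 385 per M in 4T1 alone and 484, 605, 637, 545 and 538 in co-culture, in the same order. The arms overlapped only through the fibronectin library of 4T1 alone. The difference from experiments 2 and 5 was 0.46 ± 0.09 (adjusted p 0.000645). Rpl22l1, the copy of Rpl22 (chromosome 3, 28805436 to 28807424), had 32.3, 34.5, 27.3, 32.3 and 30.5 per M and then 39.1, 50.05, 41.8, 42.9 and 43.1. Here the arms did not overlap, and the difference was 0.46 ± 0.10 (adjusted p 0.000923). Rpl22l1 was also the member called low in 4T1 alone of experiment 4. Both results rest on the same libraries of 4T1 alone, so they are not separate findings.

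In 3 members the T cell effect was lower in experiment 4 than in experiments 2 and 5. Rps2 had 1100, 1309, 1268, 1250 and 1292 per M in 4T1 alone and 927, 902, 974, 913 and 892 in co-culture, with no overlap, and differed by -0.38 ± 0.10 (adjusted p 0.00532). Rpl41 had 1147, 1203, 1325, 1058 and 1242, and 848, 1053, 876, 948 and 901. It did not overlap either, and differed by -0.27 ± 0.09 (adjusted p 0.016). Rpl7l1, the copy of Rpl7 (chromosome 17, 46773907 to 46782672), had 189, 165, 183, 174 and 173, and 143, 149, 128, 154 and 145, again without overlap, and differed by -0.25 ± 0.06 (adjusted p 0.00229). In experiment 5, where 4T1 alone was already low in Rps2, the mean pair difference of Rps2 was 0.06, and the 2 values share the 4T1 alone libraries.

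**Figure D5:**
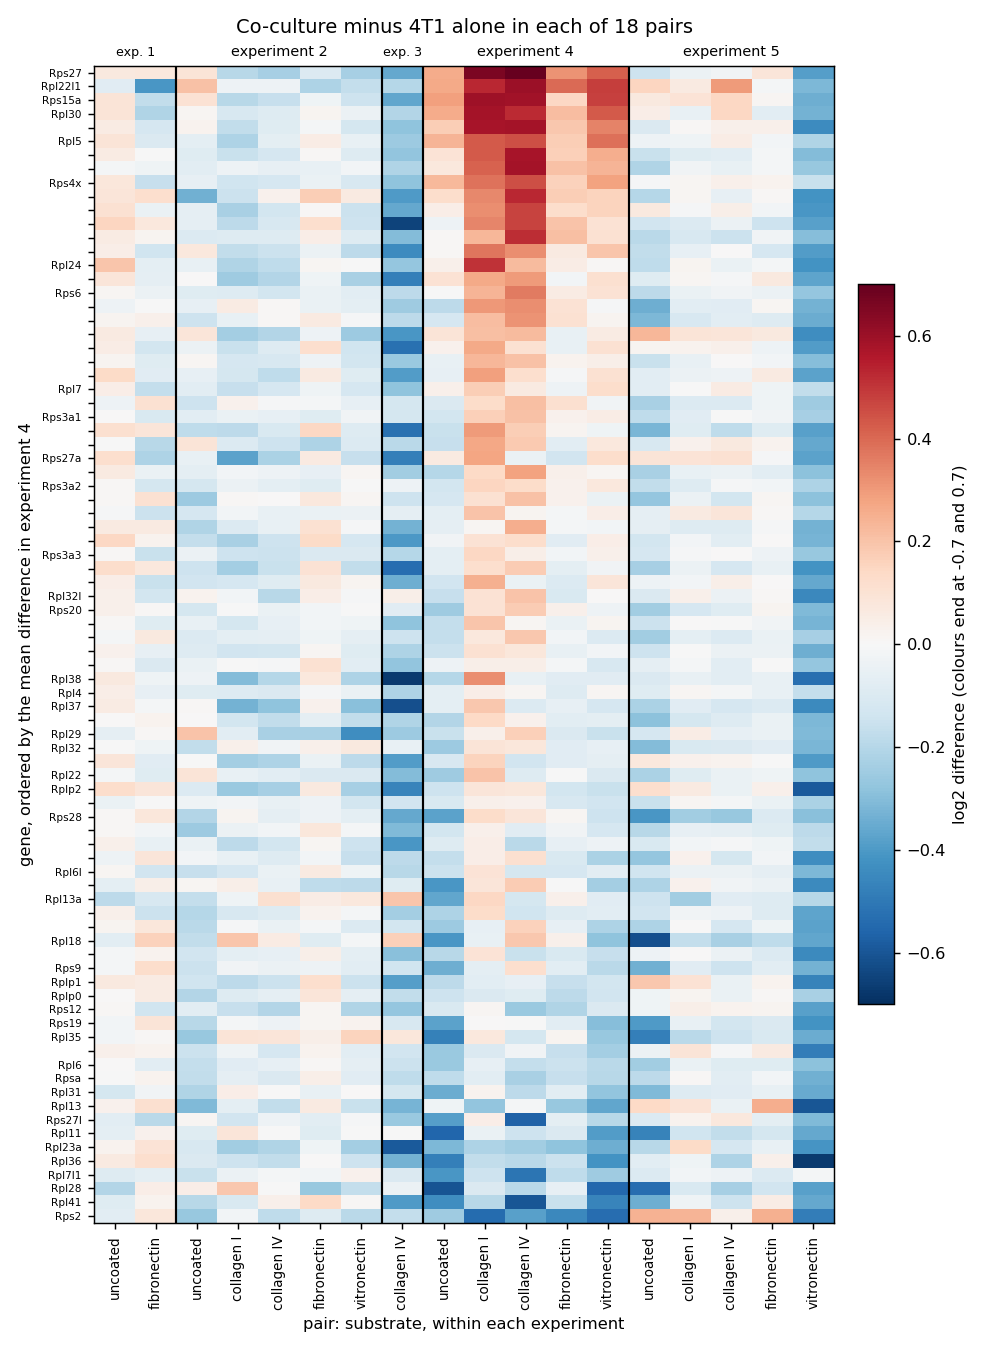
Log2 difference between co-culture and 4T1 alone for each of the 84 members (one axis) in each of the 18 pairs (the other axis), in colour, with the genes named in the text labelled. Experiment 4 holds both positive members, such as Rps27 with a mean of 0.51, and negative ones, such as Rps2 with -0.43, and vitronectin in experiment 5 is negative throughout.

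The pattern over members was alike in 1 pair of experiments. Across the 84 members, the Spearman correlation of the mean pair differences was 0.60 between experiments 2 and 3. For the other 9 pairs of experiments it lay between -0.35 (experiments 2 and 5) and 0.26 (experiments 4 and 5). The members within an experiment share its libraries and their base composition, and experiment 3 has a single pair.

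Copies of ribosomal genes were set against their parents. The ratio of the values per M is not corrected for length, so only its change between libraries is read. Rpl22l1 was at 10.8 ± 1.2% of Rpl22 in 4T1 alone (SD, n = 22) and 12.2 ± 1.4% in co-culture (n = 18), higher in 13 of 18 pairs. Rpl22, which Rpl22l1 can replace in the ribosome, fell with T cells, at -0.09 (adjusted p 0.0256). Rps27l was at 26.0 ± 1.5% of Rps27 in 4T1 alone and 23.3 ± 5.1% in co-culture, from 9.65% to 29.6%. Rpl7l1 was at 12.7 ± 1.4% and 12.01 ± 1.78% of Rpl7, and fell with T cells, at -0.14 (adjusted p 0.0116). Rpl6l was at 30.6 ± 1.2% and 31.3 ± 1.6% of Rpl6. Both fell, Rpl6l at -0.11 (adjusted p 0.0151) and Rpl6 at -0.14 (adjusted p 0.0042). Rps3a2 was at 59.3 ± 1.6% and 59.3 ± 1.9% of Rps3a1 and Rps3a3 at 26.0 ± 0.9% and 25.6 ± 1.3%. Rpl32l was at 5.31 ± 0.27% and 5.38 ± 0.32% of Rpl32. For these 4 copies, which the annotation calls processed pseudogenes, the mean ratios of the 2 arms differed by less than the SD of the libraries. The ratio to the parent was higher in 14 of 18 pairs for Rpl6l and in 12 for Rpl32l. It was higher in 9 for Rps27l and for Rps3a2, in 7 for Rpl7l1 and in 6 for Rps3a3.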

How the data were processed

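Messenger RNA of 40 libraries was sequenced as single-end reads of 75 bases. Per the submitters' processing notes, reads were handled with STAR 2.6, featureCounts and edgeR 3.31.7 on mm10. The deposited values are a signal: the authors' read counts per M of a rescaled library size (M for mega). Whole reads were recovered from 100% of the values (largest distance from a whole number 0.00016, tolerance 0.01), and depth was 18.95 to 239.128 M reads.

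Genes with at least 1 per M in 3 libraries were tested with limma 3.58.1 (R 4.3.3) on log2(value + 1), with means of 10 groups, an intensity trend and Benjamini-Hochberg adjustment at 0.05. Experiments were compared in the 22 libraries of 4T1 alone with substrate as a term. The labels number the experiments, and libraries of the same number deviated together (median residual correlation 0.478 over 156 pairs of libraries, -0.131 over 562 others), so the block is a pairing. edgeR 4.0.16 on the recovered reads, other scalings, pseudocounts and filters, library tags, left-out libraries and a correction for GC and length were alternatives. Transcript length, GC and shared windows came from GENCODE vM21, start windows from RefSeq. Tables and figures used Python 3.11.15, pandas 2.3.3, numpy 2.4.6 and matplotlib 3.10.9. Of 21349 lines in the table, 1 exact repeat and 1 gene with a cell that is no number were left out, and 19 symbols had been turned into dates.

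Members and lists were chosen with earlier results of these data known. Members named are the 8 called with the largest fall with T cells, the 3 called in each direction in other comparisons (or those with the smallest p), the 6 with the largest range between experiments, the 5 highest and 5 lowest, the stalk genes with Rpsa, Rps6, Rpl5, Rpl11 and Rps27a, and copies with their parents. Some genes are not reported by name here. Rps12 and Rpl4, members called only in the corrected or blocked fits, and the pairs and libraries singled out were chosen after their values were seen. A trial on simulated data is not among the results given here and lends them no support.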

Additional observations from a re-analysis of the deposited data

Results flagged for a closer look

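Of 79 sets of 4 to 10 libraries, 8 had a highest or lowest library whose gap to the nearest other passed the 95% limit of Dixon's test, and chance gives about 1 in 20. For the share of reads held by the 84 members, 4T1 alone on vitronectin had 6.97% in experiment 5, against 6.13 to 6.23% in the other libraries on vitronectin. Co-culture on collagen IV had 6.69% in experiment 4, against 5.85 to 5.93%. Within experiment 3, 4T1 alone on vitronectin had 6.13%, against 6.6 to 6.67% on the other substrates.

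Single members stood apart in 5 libraries of 4T1 alone. Rpl23a was at 378.2 per M on vitronectin in experiment 2, against 328 to 332 in the other vitronectin libraries. Rpl37 was at 546.7 on collagen I in experiment 3, against 432 to 440. Rpl11 was at 731.5 on collagen IV in experiment 5, against 844 to 855. Rps27l was at 131.2 on collagen IV in experiment 3, against 113 to 115, and Rpl38 was at 347.2 on uncoated plastic in experiment 3, against 269 to 282.

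The T cell effect differed between experiments for 23 members, by the limma F test on pair differences that the report gives, which called 38.3% of all genes. The members' share is below that.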

How the results depend on the processing

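Most counts in this section stand without the share of all genes called in the same setting. That share moves too: 12.2% of genes were lower with T cells as deposited, 5.58% with the correction for GC and length and 0.381% without experiment 4. A change in a count is thus not by itself a result about the members. The count of 30 members lower with T cells became 18 with library size scaling only, 6 with quantile normalisation, 0 when scaled to epithelial genes, 4 with the correction for GC and length, and 6 with that correction and the replicate block, which also called 2 higher (16.1% of all genes lower and 19.9% higher). With the replicate block alone it was 38 (23.4% of genes lower). Leaving out single experiments or libraries gave 3 to 37: 4 without experiment 3, 3 without experiment 4, 17 without experiment 5, and in co-culture 19 without uncoated of experiment 4, 16 without vitronectin of experiment 4 and 19 without vitronectin of experiment 5. With single experiments or libraries left out, the count of higher members stayed at 0. Scaling to epithelial genes moved the median of all genes to 0.16 and that of the members to 0.10. Some members called lower in the deposited values lay above 0 under that scaling: Rpl37 (0.0167), Rpl11 (0.0247), Rps27l (0.0398), Rpl38 (0.0409), Rplp0 (0.0814), Rpsa (0.0587), Rpl22 (0.0931), Rpl7l1 (0.0445), Rpl6l (0.0767) and Rpl6 (0.0453). The cause of the change was not tested for this or any other setting.

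On uncoated plastic the count of 0 became 10 with the replicate block, 12 in edgeR with the replicate block, 10 with the library tag and the replicate block, 1 in edgeR and 1 with a pseudocount of 0.1, and 0 to 1 with libraries left out (1 without co-culture on uncoated plastic of experiment 1). On collagen IV it became 11 with the tag and the replicate block, and on vitronectin 7 in edgeR with the replicate block. No alternative called a member for a coat.

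Between experiments the F count of 42 (65% of genes) became 82 when scaled to epithelial genes, 75 without the 2 vitronectin libraries of 4T1 alone that stand apart, and 27 to 71 with others left out (27 without experiment 3, 71 without vitronectin of experiment 3). Experiment 1 went from 0 to 49 with epithelial scaling. Experiment 2 went from 12 to 7 with no filter, 21 with quantile normalisation, 81 with epithelial scaling and 21 with the GC correction, and 3 to 17 with libraries left out (4 without experiment 5, 5 without collagen IV of experiment 2, 7 without fibronectin of experiment 1, 3 without fibronectin and 7 without vitronectin of experiment 2). Experiment 3 went from 13 to 4 with no filter, 3 with library size scaling, 1 with quantile normalisation, 2 with epithelial scaling, 6 without the trend, 68 without both vitronectin libraries, and 1 to 57 with others left out. There it fell to 7 without experiment 2, 2 without experiment 4, and 1 to 7 without single libraries: uncoated of experiments 1 and 3, collagen I of experiments 2 to 5, collagen IV of experiments 2, 3 and 5, fibronectin of experiment 3 and vitronectin of experiment 4. It rose to 29 without experiment 1, 20 without its fibronectin library, 57 without vitronectin of experiment 3 and 46 without vitronectin of experiment 5. Experiment 4 went from 1 to 2 with a pseudocount of 0.1, a filter of 10 in 10 libraries, median-of-ratios scaling or quantile normalisation, 9 with TMM factors computed without the members, 37 with epithelial scaling, 3 with the GC correction, 12 without both vitronectin libraries, and 0 to 12 with others left out. Those were 5 without experiment 1, 10 without experiment 5, 8 without uncoated of experiment 1, 2 without collagen I of experiment 5 or collagen IV of experiments 2 or 5, 5 without fibronectin of experiment 5, 12, 0 and 4 without vitronectin of experiments 3, 4 and 5. Experiment 5 went from 27 to 75 with epithelial scaling and stayed at 25 to 35 otherwise.

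For the T cell effect by experiment, the F count of 23 became 40 with the GC correction, 38 with quantile normalisation and 75 with epithelial scaling, and 18 to 33 with pairs left out. The 23 higher in experiment 4 became 40, 42 and 80 under the same settings and 16 to 29 with pairs left out. The 3 lower became 0 with epithelial scaling and 2 to 6 with pairs left out (6 without the pair on vitronectin of experiment 5). The library tag, the GC correction, the T cell effect by experiment and the joint removal of both vitronectin libraries were chosen after the data were seen. Both vitronectin libraries were picked by the members' own share of reads, so counts without them, singly or together, are no support.

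Every member lay far above the limit that a count of 0 allows, so depth is a small limit here. The mixture of carcinoma and T cell RNA, the sharing of sequence with other genes and the small number of experiments per substrate limit what can be read.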
